A study of Nothobranchius furzeri with 8 samples.

Results

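The 100 most stable genes of the killifish brain in these data were those with the smallest relative spread of expression over 8 fish. For every gene, the library-scaled read number (RPM, the count of the gene relative to all counted reads of its library) was averaged over the fish, genes with a mean of at least 20 RPM were kept (9004 of 26739), and the standard deviation (SD) over all 8 fish was divided by that mean. The 100 lowest values were taken as members. Genes of this kind are candidate reference genes, since a measure such as RT-qPCR divides the gene of interest by a gene taken to be constant, and any shift of the reference is carried into every result. Good references are usually sought among genes of basic upkeep, such as those for the cytoskeleton, glycolysis, ribosomes or transcription, but their levels can follow temperature, feeding or growth as other genes do.

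The libraries came from whole brains of male *Nothobranchius furzeri*, a short-lived fish of temporary African ponds. The wild group held 4 fish aged 39 days post hatching (dph), labelled MZM_A41, and the captive group 4 fish of the strain MZM-0410 aged 35 dph. The labels name no transgene and no drug for either group. Wild fish were netted in the field, and captive fish were housed singly, fed chironomid larvae and killed fasted in the morning, so that origin, age, feeding and handling cannot be told apart. Wild brains were stored in RNAlater and captive brains were frozen at once, and RNA integrity as recorded by the study was lower in each wild fish than in any captive fish. What part storage or integrity had in any difference between the groups was not tested.

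Libraries held 13923243 to 14541119 counted reads in wild fish and 11814586 to 14393377 in captive fish. No pair of libraries held identical counts, and replicates of a group differed by more than counting error (chi-square per gene 7.44 to 16.3). The 19 named markers of mature neurons all reached 20 RPM, and their summed level was 5201 to 5653 RPM in wild fish and 5792 to 6308 RPM in captive fish. The sums of other cell types separated the groups in some cases and overlapped in others. The summed level of 9 oligodendrocyte genes was 4895 to 7749 RPM in wild fish and 7336 to 11203 RPM in captive fish, and that of 8 radial glia and astrocyte genes, of which wild fish had more in 5 and less in 2, was 5436 to 7333 RPM in wild fish and 3984 to 5315 RPM in captive fish. The 4 pituitary and hypothalamic hormone genes, 3 of them higher in wild fish, summed to 145.8 to 3351 RPM in wild fish and 82.5 to 896.2 RPM in captive fish. Single genes of the eye and pineal (29.0 to 31.9 RPM in wild fish, 17.0 to 18.8 RPM in captive fish) and of skeletal muscle (9.03 to 19.5 RPM in wild fish, 4.34 to 6.81 RPM in captive fish) were higher in wild fish, whereas 3 erythrocyte genes summed to 102.5 to 124.2 RPM in wild fish and 155.3 to 189.2 RPM in captive fish, and the sums of 4 endothelial genes overlapped. In several lists the genes called by edgeR (adjusted p under 0.05) went both ways. Of the neuron genes 3 were higher and 8 lower in wild fish, and of the oligodendrocyte genes 2 were higher and 3 lower. Of the erythrocyte genes 1 was higher and 2 lower, and of the endothelial genes 1 was higher and 1 lower. Among all genes tested 41.6% were called in either direction. The marker lists hold only genes named in the study's lists of changed genes, which can raise such shares. What part cell makeup or dissection had in the differences between the groups was not tested, and no microglia marker had a named gene. In a bulk brain library, fewer cells of a type and less RNA per cell cannot be told apart.

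The members' SD over mean ranged from 1.35% to 3.65%, with a median of 3.10%, while the median of all 9004 genes was 12.9%. These values describe the choice and are not a test of it. Among the 9004 genes, 389 were below 5%, 2895 (32.2%) were below 10% and 273 were above 50%. In 62 members the highest fish was at most 10% above the lowest, and only 65 genes in all met that limit. Every member stayed within 1.2 times from the lowest to the highest fish, as did 889 of the 9004 genes. The limit of the rule separated nearly equal genes. CORO1C, GNB1 and PPP2R2A lay just inside it at 3.62%, 3.64% and 3.65%, and Nfu_g_1_008522, NRDC and Nfu_g_1_001609 lay just outside at 3.65%, 3.65% and 3.66%.

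**Figure D1:**
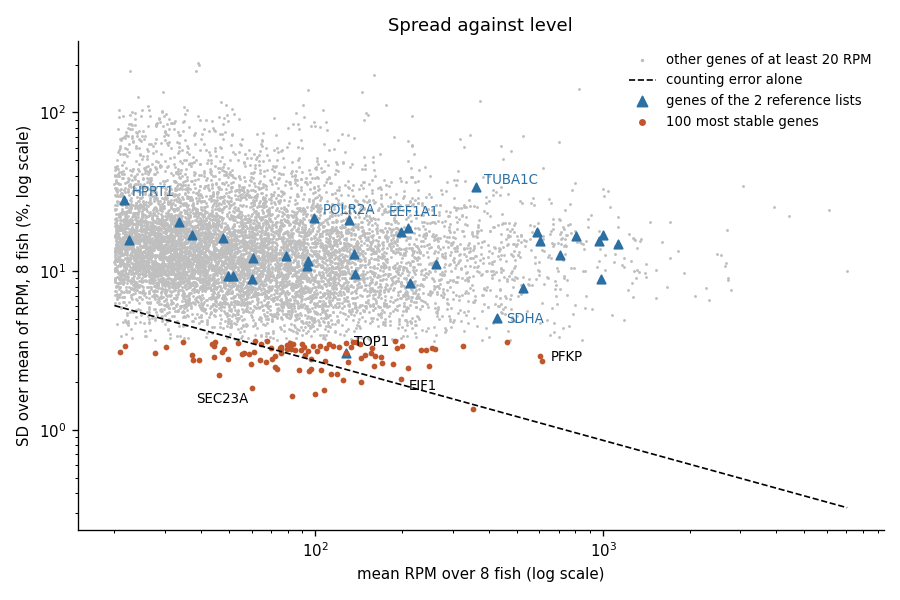
SD over mean of RPM over the 8 fish (percent, log scale) against mean RPM (log scale) for the 9004 genes of at least 20 RPM. Orange points are the 100 most stable genes, blue triangles are genes of the 2 lists of conventional and proposed reference genes, and the dashed line is the spread that counting reads alone gives. The members lie between 1.35% and 3.65%, around the dashed line, and among the reference genes TOP1 is the one that is a member.

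Part of this spread is counting error. Poisson counting at each gene's own read numbers would give an SD over mean of 1.10% to 5.95% among the members. In 42 of them the observed value was below that of counting alone, and in 85 it was within 1.5 times of it. Over all 9004 genes these shares were 1.06% and 5.99%. Since the rule picks low values, these shares follow from it in part, and the order of the members is not read as an order of steadiness. The members with the clearest spread above counting were the abundant ones. PFKP had 2.92% against 1.10% from counting, Nfu_g_1_000970 had 2.72% against 1.10%, and Nfu_g_1_021739 had 3.56% against 1.26%.

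Members were seldom genes of low level, which follows in part from the rule. At 20 to 50 RPM counting alone gave a median SD over mean of 4.86%, and the last member had 3.65%. The shares by level and the medians of level and length below are therefore not read as traits apart from the choice. Of the 4194 genes of 20 to 50 RPM 16 were members (0.381%), of the 2485 genes of 50 to 100 RPM 40 (1.61%), of the 1409 genes of 100 to 200 RPM 32 (2.27%) and of the 916 genes of at least 200 RPM 12 (1.31%). The median mean level was 92.9 RPM in members and 54.1 RPM over all 9004 genes. Per length of transcript, members had a median of 21.5 RPKM (RPM per kilobase of transcript) and ranged from 4.22 to 579 RPKM, whereas all 9004 genes had a median of 16.5 RPKM. Their transcripts, with lengths derived from RPM and RPKM, had a median of 4552 nt against 3657 nt over all 9004 genes. At 20 to 50 RPM these medians were 4206.5 nt in members and 3063 nt in all genes, but at 100 to 200 RPM members were slightly shorter (4810 nt against 4967 nt). Multiples of 3 made up 52.1% of all gene lengths, so a part of the gene models holds only coding sequence and lengths are not fully comparable.

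A human gene name could be given to 39 members. The names come from the supplementary tables of the study, which list genes that changed with age, sex or condition, and every named member comes from a list of genes that changed with age. As no member was named in the list by condition, only the other lists could name one. That the source was a list by age thus follows in part from the naming. Stability here refers to young fish of 35 and 39 dph and was not measured in older ones. None of the members was named in the list of genes that differ between wild and captive fish, against 3571 of the 9004 genes (39.7%). That list was drawn partly from these libraries and so gives no independent view. Over all 9004 genes 5209 had a name (57.9%), and lists other than that by condition named 2852 (31.7%). The remaining 61 members are given by identifier only.

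The lowest SD over mean of all was that of the unnamed Nfu_g_1_002629, at 1.35%, where counting alone gives 1.45%. This gene had 350.8, 348.7, 355.7 and 354.5 RPM in wild fish and 355.2, 363.2, 348.8 and 351.3 RPM in captive fish. The highest and the lowest of the 8 values came from captive fish 2 and wild fish 2, and the ranges overlapped. Captive fish had the wider range, with an SD over mean of 1.77% against 0.92% in wild fish.

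The named members with the lowest spreads were CCAR1, SYMPK, SEC23A and EIF1. CCAR1 (Nfu_g_1_014459), a coactivator of transcription, had 101.9, 100.5, 98.8 and 96.9 RPM in wild fish and 101.0, 97.9, 99.7 and 100.1 RPM in captive fish, an SD over mean of 1.68%. SYMPK (Nfu_g_1_004941), the scaffold protein symplekin of mRNA 3′ end formation, had 106.4, 109.9, 108.9 and 107.1 RPM in wild fish and 107.9, 104.4, 105.2 and 108.7 RPM in captive fish (1.78%). In both genes the values of the groups were interleaved. SEC23A (Nfu_g_1_021893), a subunit of the COPII coat of vesicles that leave the endoplasmic reticulum, had 58.7, 60.7, 59.6 and 59.3 RPM in wild fish and 60.3, 61.8, 61.7 and 60.6 RPM in captive fish (1.84%). Here 3 of the wild fish were below all captive fish, and only wild fish 2 overlapped with them. EIF1 (Nfu_g_1_017342), which helps the ribosome to find the start codon, had 199.3, 196.2, 204.9 and 201.3 RPM in wild fish and 196.8, 197.1, 198.9 and 190.6 RPM in captive fish (2.1%). With a transcript of 342 nt it was the most abundant member per length, at 579 RPKM.

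The other coat protein, COPG2 of the COPI coat that returns vesicles from the Golgi apparatus, had 152.0, 141.9, 144.2 and 139.8 RPM in wild fish and 140.4, 145.4, 148.4 and 143.0 RPM in captive fish (2.86%). Its highest and its lowest value were both wild. Of the 69 genes of at least 20 RPM on the list of vesicle coats and Golgi traffic, COPG2 and SEC23A were the members, and the median spread of that list was 12.2%. Of the 39 such genes of translation initiation and elongation EIF1 was the only member (list median 12.1%).

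For RNA processing, the members named on the list were HNRNPR, SART1 and SRRM3, of 121 genes with a median spread of 11.6%. HNRNPR, a ribonucleoprotein that binds pre-mRNA, had 247.9, 255.9, 270.5 and 252.7 RPM in wild fish and 262.6, 259.7, 254.6 and 271.6 RPM in captive fish (3.25%). SART1, a component of the tri-snRNP of the spliceosome, averaged 115.1 ± 4.98 RPM in wild fish and 114.2 ± 3.16 RPM in captive fish (SD, n = 4 each). SRRM3, a splicing regulator of neuronal microexons, averaged 146.1 ± 2.43 RPM in wild fish and 139.7 ± 4.91 RPM in captive fish (SD, n = 4 each). Its captive fish 1, at 132.9 RPM, was the lowest of all 8, and the groups overlapped only through captive fish 3. PNISR, an SR-related nuclear protein and at 326.1 RPM one of the more abundant members, and FUBP3, which binds single-stranded nucleic acids, had spreads of 3.37% and 2.95%.

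The members with the highest mean RPM among named genes were PFKP, PNISR and HNRNPR. PFKP (Nfu_g_1_013362), the platelet-type phosphofructokinase of glycolysis, had 620.6, 619.0, 617.8 and 603.9 RPM in wild fish and 605.9, 587.4, 617.6 and 571.7 RPM in captive fish. All wild fish but the fourth were above all captive fish, and captive fish 4 was the lowest. In PFKP the captive fish were the more variable, with an SD of 20.2 RPM against 7.71 RPM in wild fish. This was not general, since the members' median SD over mean was 2.99% in wild fish and 2.74% in captive fish. At the other end, the named members with the lowest mean RPM were WDR20, APMAP and BORCS6. WDR20, a partner of ubiquitin-removing enzymes, averaged 37.0 ± 1.13 RPM in wild fish and 38.1 ± 0.62 RPM in captive fish (SD, n = 4 each). Its spread of 2.74% was below the 4.43% that counting alone gives.

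Signalling genes made up another group. The kinases MAP4K4 and PAK3 were members, and the 108 kinase and MAP kinase signalling genes of at least 20 RPM had a median spread of 13.6%. MAP4K4, a kinase upstream of the JNK pathway, averaged 192.7 ± 7.98 RPM in wild fish and 190.8 ± 5.12 RPM in captive fish (SD, n = 4 each). PAK3, a kinase of dendritic spines, had 236.4, 261.4, 247.3 and 262.2 RPM in wild fish and 252.9, 254.5, 256.7 and 256.4 RPM in captive fish (3.29%). In PAK3 the wild fish spanned the whole range and the captive fish lay within 4 RPM of each other. The phosphatases PTPN12, which acts on tyrosine residues, and PPP2R2A, a regulatory subunit of PP2A, were members with 2.62% and 3.65%.

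Neuronal genes were present as well. RBFOX3 (Nfu_g_1_013866), the splicing factor known as NeuN and a marker of mature neurons, had 239.7, 229.7, 238.5 and 244.0 RPM in wild fish and 236.0, 246.2, 253.0 and 250.2 RPM in captive fish (3.18%). The 3 highest values were captive and the lowest was wild fish 2. It was the only member among the 19 markers of mature neurons, whose median spread was 17.0%. GABRB2, a subunit of the GABA-A receptor, averaged 136.1 ± 4.72 RPM in wild fish and 133.3 ± 5.16 RPM in captive fish (SD, n = 4 each). It was the only member among 86 receptor and channel genes, with a median spread of 17.7%. The G protein subunits GNAO1 and GNB1, which relay signals from receptors on neurons and other cells, had spreads of 3.59% and 3.64%. CDH6, an adhesion molecule of the cadherin family, had 114.3, 120.8, 117.2 and 122.4 RPM in wild fish and 118.8, 120.5, 117.4 and 116.4 RPM in captive fish (2.24%). The highest and the lowest fish were both wild.

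**Figure D2:**
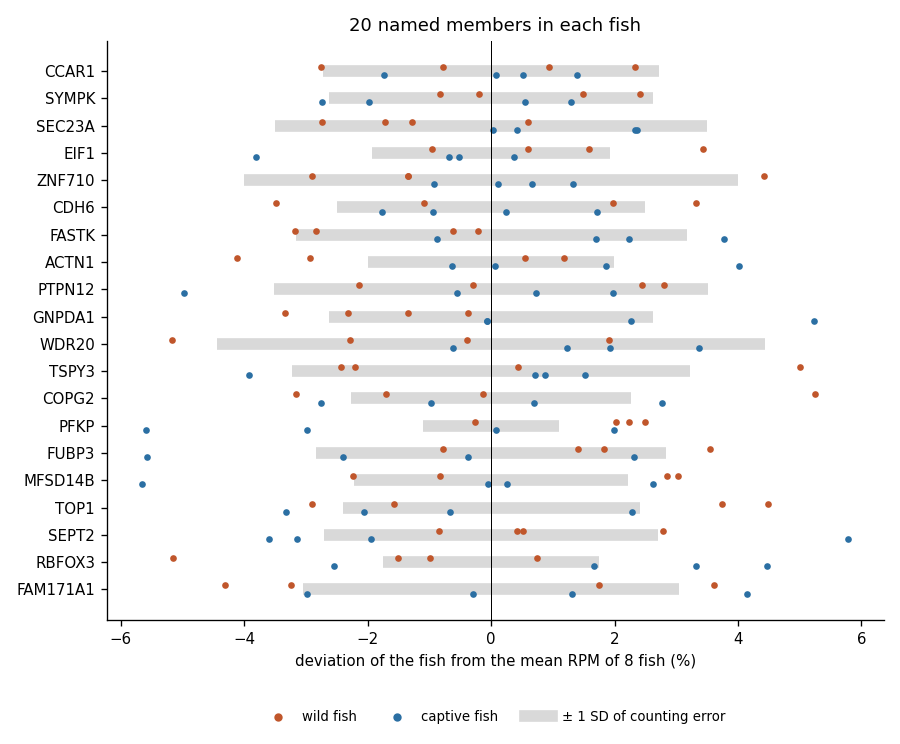
Deviation of each fish from the mean RPM of all 8 fish (percent) for the 20 named members with the lowest spread, lowest at the top. Orange points are wild fish, blue points are captive fish, and grey bars span 1 SD of counting error on either side. CCAR1 at the top has a spread of 1.68% and FAM171A1 at the bottom 3.23%, and in GNPDA1 all wild fish lie below all captive fish.

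The remaining named members came from various functions. They included the actin cross-linker ACTN1 (2.60%), GNPDA1 of amino sugar metabolism (2.70%), the septin SEPT2 (3.14%), the membrane-bound ubiquitin ligase RNF103 (3.30%), the cyclin CCNY (3.33%), the deacetylase HDAC10 (3.46%) and the actin-binding coronin CORO1C (3.62%). Also named were ZNF710 (2.22%), FASTK (2.44%), TSPY3 (2.80%), MFSD14B (2.97%), FAM171A1 (3.23%), ZBTB38 (3.29%) and APMAP (3.49%).

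No member stood on the lists of the proteasome (28 genes of at least 20 RPM), cytosolic ribosomal proteins (74), the respiratory chain and ATP synthase (57) or actin and microtubule cytoskeleton (77), whose median spreads were 13.8%, 15.3%, 14.3% and 14.1%. With 1.11% of all 9004 genes chosen, lists of this length would hold few members in any case. The lists hold named genes only. The 3571 genes named in the list by condition had a median spread of 16.4%. The other 1638 named genes had 9.84% and the 3795 genes without a name 10.7%. The lists are also incomplete, since the members ACTN1, CORO1C and SEPT2 have roles in the cytoskeleton and are not on that list. Of the 76 ribosomal protein genes tested 72 were higher in wild fish, where 41.6% of all genes tested were called in either direction. Naming through the list by condition can raise such a share. The 13 immediate early genes, which respond to neuronal activity within minutes, had a median spread of 50.3%, and the 16 circadian clock genes 25.4%.

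The question of whether wild and captive brains differ was put to all genes with edgeR's quasi-likelihood test. At an adjusted p under 0.05, 8116 of 19517 genes (41.6%) were called, with 3865 higher and 4251 lower in wild fish. Of the 9002 tested genes of at least 20 RPM 4807 (53.4%) were called. None of the 100 members was called, none had an unadjusted p under 0.05 in edgeR, and DESeq2 called none, with 1 at an unadjusted p under 0.05. The rule used the same values, so these counts follow from the choice. The 95% intervals of the members' fold changes all lay within 0.25 of 0 on the log2 scale, as did those of 15.3% of all 9004 genes, and the end farthest from 0 was at 0.21.

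The RPM values of wild and captive fish did not overlap in 5 members, against 52.7% of all 9004 genes. These were GNPDA1, BORCS6, Nfu_g_1_017913, Nfu_g_1_000510 and Nfu_g_1_017303. GNPDA1 had 106.1, 103.9, 107.1 and 105.0 RPM in wild fish and 113.2, 107.5, 107.5 and 110.0 RPM in captive fish, and the wild mean differed from the captive one by -3.62%. BORCS6, a subunit of the BORC complex that positions lysosomes, had 44.5, 45.2, 47.2 and 44.5 RPM in wild fish and 43.8, 43.3, 42.8 and 42.6 RPM in captive fish, a wild mean 5.15% above the captive one. That was the largest difference of means in any member. After BORCS6, the named members with the largest positive differences were SRRM3 (4.63%), PFKP (3.30%), FUBP3 (3.06%) and PPP2R2A (2.96%). The largest negative ones after GNPDA1 were RBFOX3 (-3.39%), FASTK (-3.36%), CCNY (-3.24%) and WDR20 (-2.91%). By RPM 58 members had the higher mean in wild fish, a count that depended on the scaling.

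Over all members, the median difference between the groups was 0.026 in size on the log2 scale of RPM. RPM divides by all reads. Factors that estimate the scale from most genes differed between wild and captive fish by 2.03% (TMM, trimmed mean of M values) or by -1.90% (upper quartile). On the log2 scale these were 0.029 and -0.028, close in size to that median and smaller in size than the differences named above. With library totals alone 58 members had a positive fold change, with TMM 24 and with the upper quartile 78. No direction is therefore drawn from the members' differences. Each library devoted nearly the same share of its reads to the members, which follows from the rule that chose them. Their summed level was 12034.5, 12198.8, 12232.2 and 12243.5 RPM in wild fish and 12112.1, 12081.3, 12202.1 and 12030.1 RPM in captive fish.

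Stability was next measured in fish that had no part in the choice. Each fish was left out in turn, 100 genes were chosen from the other 7 by the same rule, and the level in the left-out fish was set against the mean of the 7. The chosen genes deviated by a median of 4.04% over the 8 fish. For single fish the median was 4.56%, 3.96%, 3.49% and 4.67% in wild fish and 4.29%, 3.24%, 4.03% and 4.05% in captive fish. Each was below the median over all genes of at least 20 RPM in the same fish, which ran from 10.4% to 12.6%. Between 54 and 69 of the 100 chosen genes were within 5%, against 21.5% to 25.6% of all such genes. The chosen genes had a median SD over mean of 2.77% to 3.01% in the 7 fish used. An SD and a median absolute deviation are unlike measures, so these values do not give the size of the loss in steadiness. The farthest of the 100 chosen genes in a fish deviated by 18.4% to 44.1%. A low spread in 7 fish thus did not hold for every chosen gene in the eighth.

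**Figure D3:**
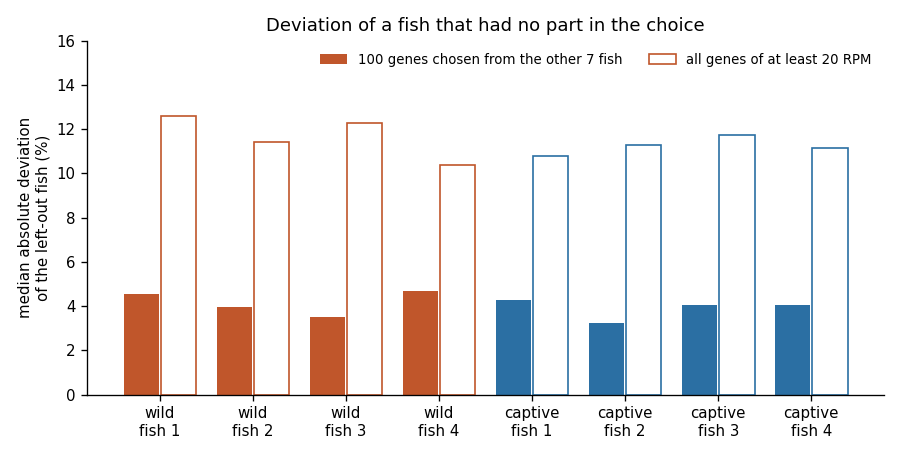
Median absolute deviation (percent) of a left-out fish from the mean of the other 7, for the 100 genes chosen on those 7 (filled bars) and for all genes of at least 20 RPM (open bars); orange bars are wild fish, blue bars captive fish. Filled bars reach 3.24% to 4.67% and open bars 10.4% to 12.6%.

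A choice that used fish of 1 group only carried over to the other group in small part. The 100 genes steadiest among wild fish had a median SD over mean of 1.23% in wild fish and of 5.36% in captive fish, where all genes of that level had 6.64%. The 100 steadiest among captive fish had 1.06% in captive fish and 5.33% in wild fish, where all genes had 7.48%. In the fish not used, the chosen genes were thus only a little steadier than other genes. The 2 choices shared 4 genes, and 13 of the wild choice and 12 of the captive choice were members. Between the groups, these genes were called about as often as other genes. Of the wild choice 55 and of the captive choice 57 were called by edgeR, against 53.4% of the 9002 tested genes, and the median size of their difference between groups was 0.17 and 0.21 on the log2 scale of RPM, against 0.25 and 0.26 over all genes of that level. The choice lowered the spread in 1 of the groups that edgeR compares, which can make small differences easier to call. These shares of calls therefore follow in part from the choice, and no conclusion is drawn from them. The choice on 1 group rested on 4 fish and was judged by SD over mean within the other 4. The choice above rested on 7 fish and was judged by the deviation of 1 fish from their mean. These measures are unlike, so how much carried over is not compared between the choices. The number of fish and the group cannot be told apart either.

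Other definitions of stability returned between 12 and all 100 of the members. A lower limit of 10 RPM kept 100, a limit of 50 RPM kept 84, and the SD of log2(RPM + 0.5) kept 99. Rescaling kept 76 (upper quartile), 70 (TMM) or 63 (RLE, the size factors of DESeq2), and all 3 kept 43. Leaving out 1 fish kept 69 to 78, and 51 members were kept whichever fish was left out. Of the members 37 were kept under all 3 scalings and all 8 omissions. The named ones among these were CCAR1, SYMPK, SEC23A, EIF1, ZNF710, CDH6, FASTK, ACTN1, PTPN12, TSPY3, COPG2 and TOP1. These settings reuse most of the same values, so being kept follows in part from a low spread in the choice itself. Definitions that kept fewer members, such as the variance within groups only (24), are not part of this count. GABRB2, GNAO1 and Nfu_g_1_013092 were among the 4 members kept under none of the scalings.

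**Figure D4:**
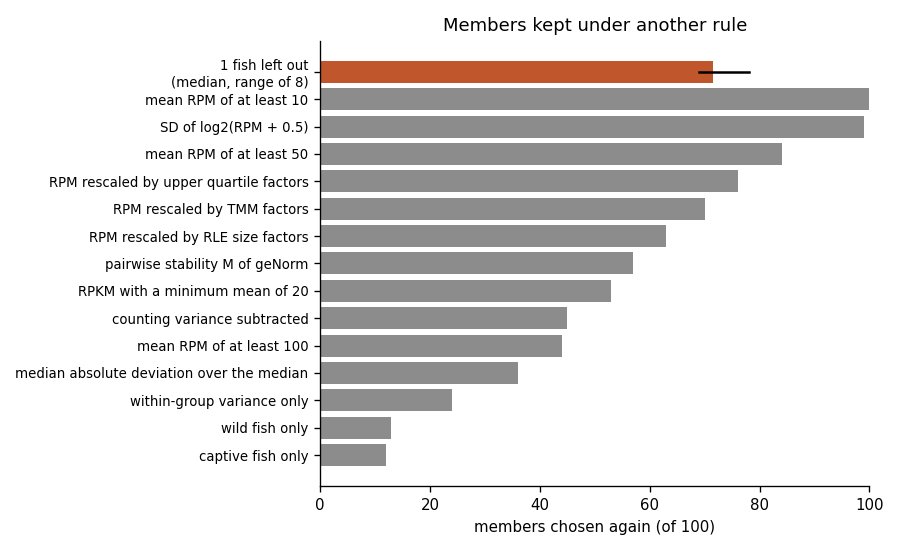
Number of the 100 members chosen again under each other definition of stability (grey bars) and with 1 fish left out (orange bar, median; black line, range of 69 to 78 over the 8 omissions). Definitions that used 1 group only kept 13 (wild) and 12 (captive).

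Conventional reference genes were then examined in the same fish. Of a list of such genes 22 names matched 28 genes, all tested, and 26 of them reached 20 RPM. Their SD over mean had a median of 15.5% and ran from 3.07% to 33.8%, and 6 were below 10%. Of the 28 genes 16 were higher and 4 lower in wild fish, and 8 were not called. Among all genes tested 41.6% were called, and among those of at least 20 RPM 53.4%. However, 17 of the 28 are named in the study's list of genes that differ by condition, some also in other lists. That list is not independent of these libraries. Of the 11 absent from that list 3 were called. Leaving out that list removes genes that differ by condition, so this share cannot be set against that of all genes tested. A second list, proposed as references from human RNAseq, matched 8 genes of which 7 were higher and 1, a GPI copy near 1 RPM, was lower in wild fish. Of these 8 genes 6 are named in the list by condition. ACTB, GAPDH and TBP, the gene used for normalisation in the RT-qPCR of the study, could not be assigned to a gene by the names used here.

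TOP1 (Nfu_g_1_021099), DNA topoisomerase I, which relieves twist in transcribed DNA, was the only conventional reference gene among the members, at rank 49. Its level was 125.5, 132.3, 133.3 and 123.9 RPM in wild fish and 126.7, 124.9, 130.5 and 123.3 RPM in captive fish. Wild fish 2 and 3 were the highest, and the groups overlapped. The next on the list was SDHA, the catalytic subunit of succinate dehydrogenase, at rank 422 and 5.10%. It had 441.2, 463.2, 444.5 and 427.1 RPM in wild fish and 436.9, 408.7, 410.3 and 397.9 RPM in captive fish. The groups overlapped through wild fish 4 and captive fish 1, and edgeR did not call the gene (log2 fold change 0.07 ± 0.05 SE, adjusted p = 0.265).

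Of the conventional genes, the ribosomal protein genes RPL7, RPL8, RPL13, RPL13A and RPLP0 and the elongation factor gene EEF1A1 were higher in wild fish. On the wider list of translation initiation and elongation 28 genes were higher and 7 lower in wild fish, of 45 tested. Among all genes tested 41.6% were called. The lists hold named genes only, and names from the list by condition can raise such a share. RPL13A had 1157.3, 1080.1, 1045.5 and 1116.7 RPM in wild fish and 813.9, 834.8, 801.3 and 874.6 RPM in captive fish, without overlap (log2 fold change 0.38 ± 0.05 SE, adjusted p = 0.000242 in edgeR). RPLP0, a protein of the ribosomal stalk that was named without the list by condition, averaged 786.3 ± 18.9 RPM in wild fish and 627.5 ± 37.5 RPM in captive fish (SD, n = 4 each). Its log2 fold change was 0.30 ± 0.05 SE (edgeR adjusted p = 0.00157). EEF1A1, which carries aminoacyl-tRNA to the ribosome, had 198.2, 273.6, 247.4 and 245.6 RPM in wild fish and 190.3, 165.5, 185.4 and 177.0 RPM in captive fish. Wild fish 1 was close to the captive fish and the other wild fish were well above them.

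POLR2A, the largest subunit of RNA polymerase II, moved in the opposite direction. It had 77.6, 79.4, 82.6 and 80.0 RPM in wild fish and 117.4, 107.6, 130.0 and 118.9 RPM in captive fish, without overlap (log2 fold change -0.60 ± 0.06 SE, edgeR adjusted p = 4.49e-05). HPRT1, a purine salvage enzyme, had 12.2, 12.9, 20.0 and 22.5 RPM in wild fish and 24.5, 27.0, 25.2 and 27.9 RPM in captive fish, and it too was lower in wild fish (-0.66 ± 0.19 SE, edgeR adjusted p = 0.0193). The wild fish were split, 2 of them near 12 to 13 RPM and 2 near or above 20 RPM. GPI (Nfu_g_1_008309), an enzyme of glycolysis that stands on both lists, had 653.3, 674.2, 697.7 and 703.5 RPM in wild fish and 529.0, 478.6, 478.6 and 479.9 RPM in captive fish, without overlap (0.44 ± 0.06 SE, edgeR adjusted p = 0.000179).

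Genes close to the threshold were less certain. The call was lost when any of several fish was left out for ATP5B Nfu_g_1_011312 (wild fish 2, 3 or 4 and captive fish 2, 3 or 4; log2 fold change then 0.13 to 0.16), ATP5B Nfu_g_1_008681 (wild fish 3 or 4 and captive fish 2, 3 or 4; 0.13 to 0.18) and RAB7A (wild fish 1, 2 or 3 and captive fish 3 or 4; 0.14 to 0.17). It was also lost for SNRPD3 (wild fish 3 and captive fish 1 or 3; about 0.18 each time) and CASC3 (any wild fish or captive fish 3; -0.23 to -0.15). CASC3 also lost the call with upper quartile factors (-0.16), with library totals only (-0.19) and in limma (-0.18), and ATP5B Nfu_g_1_008681 (0.15) and RAB7A (0.16) lost it with the filter filterByExpr.

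**Figure D5:**
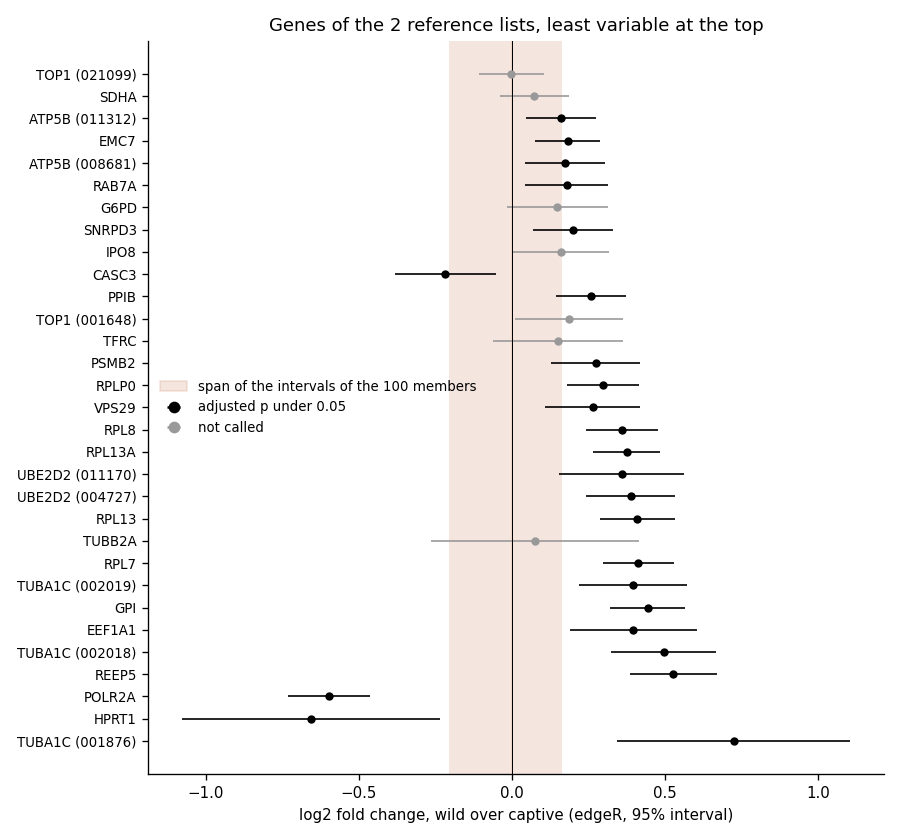
Log2 fold change, wild over captive, with 95% interval (edgeR) for genes of at least 20 RPM on the 2 reference lists, the least variable at the top; black points had an adjusted p under 0.05, grey points were not called, and digits in brackets end the identifiers of genes that share a name. The shaded band spans the intervals of the 100 members. TOP1 at the top lies at 0, RPL13A at 0.38 and POLR2A at -0.60.

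A member's name did not stand for the behaviour of all its named copies. The fish genome holds several genes under some human names, and 18 tested genes shared a name with a named member. Names come only from the study's lists of changed genes, so steady copies can be missing from these 18. The second TOP1, Nfu_g_1_001648, averaged 101.1 ± 11.8 RPM in wild fish and 87.0 ± 1.95 RPM in captive fish (SD, n = 4 each), with a spread of 11.5% (edgeR adjusted p = 0.0815). The SRRM3 copy Nfu_g_1_022202 averaged 14.3 ± 0.741 RPM in wild fish and 37.5 ± 6.90 RPM in captive fish, with a spread of 51.1% (log2 fold change -1.42 ± 0.13 SE, edgeR adjusted p = 2.3e-05). A GNB1 copy, Nfu_g_1_002388, averaged 35.5 ± 6.09 RPM in wild fish and 59.2 ± 5.68 RPM in captive fish, with a spread of 29.1%. In contrast, Nfu_g_1_019634, 1 of 2 further RBFOX3 genes, had a spread of 5.81%, and Nfu_g_1_015095, 1 of 2 further HNRNPR genes, had 5.43%. Reads of near-identical copies may have been assigned to either, so values of genes that share a name are uncertain to that extent.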

How the data were processed

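RNA was measured in 1 whole brain per library, 4 wild and 4 captive fish grouped by the strain label. The authors prepared strand-specific poly(A) libraries, used bcl2fastq 2.20.0.422 for conversion, TopHat2 2.1.0 for alignment against a genome with repeats hard-masked, and featureCounts 1.6.5 for strand-specific counts per gene. The deposited table gives whole counts, RPM and RPKM; RPM equalled count over column total within 5e-12. Coordinates and sequences were not used here, since the reference at hand has other identifiers.

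Genes with at least 1 count in each library were tested with edgeR 4.0.16 (TMM, quasi-likelihood F-test, Benjamini-Hochberg, threshold 0.05) in R 4.3.3, with DESeq2 1.42.0 and limma 3.58.1 as alternatives. The p-values set the difference between the groups against the spread between fish. SD over mean was computed in Python 3.11.15, and both procedures were tested on simulated data. Intervals for counting cover counting error only. Scalings, limits of level, measures of spread and omissions of 1 fish were tried as alternatives.

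The members and the 38 gene lists, written from general knowledge, were chosen with earlier results of these data known. Named genes are, among members with a name, the 20 with the lowest spread, the 3 with the highest and the 3 with the lowest mean RPM, the 5 whose fold change was most positive and the 5 whose was most negative, list members, their copies, and genes next to the limit of the rule; the steadiest unnamed genes and those without overlap were added after their values were seen. A few named genes are not reported here.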

Additional observations from a re-analysis of the deposited data

Results flagged for a closer look

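In 7 of 140 groups of 4 fish tested with Dixon's criterion, 1 fish stood apart from the other 3, and chance gives about 1 in 20. Among members, TSPY3 had 68.1 RPM in captive fish 4 and 71.4 to 71.9 RPM in the other captive fish. PFKP had 603.9 RPM in wild fish 4 and 617.8 to 620.6 RPM in the other wild fish, and CORO1C had 64.8 RPM in wild fish 4 and 68.9 to 69.5 RPM in the others. Among reference genes, CASC3 had 116.6 RPM in captive fish 3 (others 92.4 to 94.5 RPM), PSMB2 had 77.6 RPM in captive fish 1 (others 67.7 to 68.7 RPM), VPS29 had 112.0 RPM in captive fish 2 (others 125.1 to 126.6 RPM), and GPI had 529.0 RPM in captive fish 1 (others 478.6 to 479.9 RPM).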

How the results depend on the processing

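Of the 100 members, 63 were chosen again after RLE scaling, 57 by the pairwise stability M of geNorm, 53 on RPKM with a minimum of 20, 45 with the counting variance subtracted, 44 with a minimum of 100 RPM, 36 by the median absolute deviation over the median, 24 by the variance within groups only, 13 on wild fish only and 12 on captive fish only. Without 1 fish, 69 to 78 were kept. With a minimum of 50 RPM, 26 of the members chosen were below the counting value in place of 42; this alternative, the TMM scaling of the same count and both alternatives for the choice on 1 group were added after seeing the data. The causes were not tested. The deviation of the fish left out was 0.06 on the log2 scale under each setting tried. None of the 15 other fits called a member, and the number of genes called ran from 6814 to 8834, with 47.6% of the calls higher in wild fish in the TMM fit and 57.1% with upper quartile factors. Of the fold changes of reference genes under the alternatives, 439 kept direction and side of the threshold, 29 lost the call and 6 gained it. Another 6, all of genes not called, changed sign. TOP1 Nfu_g_1_021099, near 0 in the TMM fit, was at 0.055 with upper quartile factors, 0.027 with library totals only, 0.027 in limma and between -0.024 and 0.014 without 1 fish (positive without wild fish 1 or wild fish 4), and TUBB2A was between -0.0023 and 0.18 without 1 fish (negative without captive fish 2). No paired analysis was possible because the labels give wild and captive fish no shared numbers. Motifs in promoters could not be examined, since no sequences were used here. Depth limits the order of the members.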
